A study of Mus musculus with 6 samples.

Results

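The enzymes, carriers and electron acceptors of fatty acid oxidation were followed in mouse liver, where 32 genes of the pathway were listed by name, 21 acting in mitochondria and 11 in peroxisomes, out of 35082 genes with at least 1 transcript in the files. The counts of all transcripts of each listed gene were added up in each of 6 libraries, and mitochondrial and peroxisomal genes were kept apart. The knockout-labelled group was 3 male mice of genotype Alb-cre; G3BP1f/f, in which Cre recombinase is driven by the albumin promoter and so acts in hepatocytes. The control group was 3 male mice of genotype G3BP1f/f, which carry the floxed alleles without Cre, although their sample titles call them wild-type. All 6 animals were moved to a high-fat diet when 8 weeks old and stayed on it for 20 weeks, and whole liver was sequenced as poly-A RNA. No group on another diet was analysed here. G3BP1 is an RNA-binding protein that seeds stress granules, and the comparison asks how liver transcripts differ between animals with and without the Cre transgene on this diet.

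Beta-oxidation removes carbons in pairs from a fatty acid that is bound to coenzyme A. Long chains enter mitochondria through the carnitine shuttle, in which carnitine palmitoyltransferase 1 makes the acylcarnitine, a translocase carries it across the inner membrane and carnitine palmitoyltransferase 2 restores the acyl-CoA. There the cycle of dehydrogenation, hydration, a further dehydrogenation and thiolysis repeats, and its electrons pass through the electron transfer flavoprotein to the respiratory chain. Peroxisomes shorten very long and branched chains and bile acid intermediates with a separate set of enzymes and hand the products on as carnitine esters. Many genes of both pathways are targets of the nuclear receptor PPARα, which fatty acids activate in the fasted liver.

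Sequencing depth was similar throughout, with 20899135 to 21750007 estimated counts per library. G3bp1, the targeted gene, measured 44.0, 30.0 and 31.5 CPM in knockout-labelled replicates 1 to 3, against 44.1, 34.8 and 40.5 CPM in control replicates 1 to 3. CPM here is the count scaled to the library total and to TMM factors, which bring the bulk of genes to a common level. The factors were 1.08, 1.07 and 1.14 in knockout-labelled replicates 1 to 3 and 0.90, 0.84 and 1.00 in control replicates 1 to 3. Every knockout-labelled factor thus lay above every control factor. For G3bp1 the groups overlapped, with a log2 difference of -0.18 (SE 0.22, 95% interval -0.67 to 0.31, edgeR quasi-likelihood test, adjusted p = 0.91). A deletion was therefore not detectable in the gene's counts, and the animals are called by their label. Whether counts of a transcript that lacks the deleted exons are included was not tested. Hepatocyte markers were high in every library, with 6 of 6 tested and summed levels of 60676 to 105769 CPM in knockout-labelled livers and 90444 to 118042 CPM in controls. Of 6 Kupffer cell markers all 6 lay below 0 (median log2 difference -0.61, summed 189 to 270 CPM in knockout-labelled livers and 194 to 615 CPM in controls), as did all 5 red blood cell markers (median -0.97, summed 438 to 1106 CPM and 727 to 1678 CPM in the same order). Without control replicate 3 the Kupffer cell median was 0.0015 with 3 markers on each side of 0. The adipocyte markers Lep and Ucp1 had 0 counts in all libraries, and the summed adipocyte level of 137 CPM in knockout-labelled replicate 3 was nearly all Cidea, a lipid droplet gene that steatotic hepatocytes also express. Muscle markers summed to at most 0.43 CPM and neutrophil markers to at most 4.57 CPM in knockout-labelled livers and 16.3 CPM in controls. The median log2 difference was -1.44 for the 3 neutrophil markers tested, all below 0, and dropping control replicate 3 gave -0.68. For the 4 bile duct markers tested it was -0.47, and dropping knockout-labelled replicate 1 gave -0.74. Stellate and endothelial medians, -0.17 and 0.18, changed sign with a library left out, with ranges of -0.40 to 0.37 and -0.09 to 0.54. In bulk liver, fewer cells of a type and less RNA per cell cannot be told apart, and the part of these markers in the values below was not tested.

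Knockout-labelled replicate 1 was quantified with a fragment length of exactly 250 bases, whereas the effective lengths imply 242 to 262 bases in the other 5 libraries. In that library the effective length of a 100-base transcript was 3.50, against 100 in the other 5 libraries. Genes whose main transcript has at most 800 bases deviated from their mean over the 6 libraries by a median log2 of 0.21, -0.30 and -0.53 in knockout-labelled replicates 1 to 3 and 0.27, 0.12 and 0.29 in control replicates 1 to 3. Knockout-labelled replicates 2 and 3 thus held less of the shortest transcripts than the other 4 libraries. The share of counts on mitochondrially encoded genes was 7.57%, 9.19% and 10.2% in knockout-labelled livers and 7.40%, 7.64% and 7.22% in controls. The part of these library differences in the values below was not tested beyond the removal of the length and GC trend. With that trend removed the Kupffer cell and red blood cell medians were -0.34 and -0.56, and all 6 and all 5 markers stayed below 0.

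The promoters of 4 members are shown, of which Cpt2, Slc25a20 and Acaa1a are genes whose groups did not overlap, and Acaa1b is the close copy of Acaa1a whose groups did. Each run is the 250 bases before the RefSeq gene start on GRCm38.p6, written 5′ to 3′ on the gene's strand, and capitals mark the GC box GGGCGG or its reverse complement CCGCCC. The windows lie at chr4:107923590-107923839 (minus strand, Cpt2), chr9:108661886-108662135 (plus strand, Slc25a20), chr9:119341044-119341293 (plus strand, Acaa1a) and chr9:119157094-119157343 (minus strand, Acaa1b). In the annotation used for the counts Acaa1a starts at chr9:119339676, so its window lies wholly inside the gene as placed there. The Cpt2 and Slc25a20 windows also reach past their gene starts in that annotation.
Cpt2: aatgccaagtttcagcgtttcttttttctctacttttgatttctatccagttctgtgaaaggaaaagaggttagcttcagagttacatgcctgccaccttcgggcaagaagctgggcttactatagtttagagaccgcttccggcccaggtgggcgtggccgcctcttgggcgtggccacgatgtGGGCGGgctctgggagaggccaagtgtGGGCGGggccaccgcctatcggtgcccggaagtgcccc
Slc25a20: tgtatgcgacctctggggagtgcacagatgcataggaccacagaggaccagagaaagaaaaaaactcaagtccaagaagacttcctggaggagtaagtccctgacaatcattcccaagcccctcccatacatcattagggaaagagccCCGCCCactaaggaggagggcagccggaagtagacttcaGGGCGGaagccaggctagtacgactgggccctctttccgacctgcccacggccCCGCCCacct
Acaa1a: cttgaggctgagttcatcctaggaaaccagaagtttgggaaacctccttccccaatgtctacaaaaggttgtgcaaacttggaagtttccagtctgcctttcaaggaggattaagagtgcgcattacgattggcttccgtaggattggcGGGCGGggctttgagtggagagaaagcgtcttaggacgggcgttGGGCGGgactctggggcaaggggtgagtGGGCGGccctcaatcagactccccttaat
Acaa1b: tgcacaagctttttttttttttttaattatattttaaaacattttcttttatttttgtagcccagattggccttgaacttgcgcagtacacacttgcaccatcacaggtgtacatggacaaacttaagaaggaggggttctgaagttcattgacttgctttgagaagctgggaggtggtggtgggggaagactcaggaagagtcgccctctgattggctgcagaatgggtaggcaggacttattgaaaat
The Cpt2 window holds 2 GC boxes, those of Slc25a20 and Acaa1a hold 3 each, and that of Acaa1b holds 0. Not printed are the windows of Acadvl, with 0 GC boxes, and of Pecr, with 2, whose groups did not overlap either. A relation between GC boxes and the separation of the groups was not tested. RefSeq windows were found for 28 of the 32 members, 30 windows in all, and none is printed for Acaa2, Crat, Decr1 or Hsd17b4. A GC box in either direction stood in 20 of the 30 member windows (66.7%), against 10756 of all 32851 windows (32.7%), and the median GC content was 59.2% in member windows against 52.4% in all. The letters TATAAA, searched for on both strands of the same 250 bases, stood in 0 of 30 member windows and in 12.4% of all windows, and say nothing of binding. All windows cover 27025 genes, whatever their level in liver, whereas every member passed the filter on low counts. Windows of expressed genes alone were not compared, so these shares are not shown to be particular to the pathway. The main transcripts of Acaa1a and Acaa1b share 1532 aligned identical bases, 90.7% of the shorter one. Their windows, aligned with gaps, were identical at 124 positions (49.6%). Unrelated windows were not aligned for comparison, and the Acaa1a window lies inside the gene as annotated. Whether the promoters of the pair differ was therefore not tested.

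PPARα binds with its partner RXR to direct repeats spaced by 1 base, so AGGTCANAGGTCA was searched for on both strands of windows from 250 bases before to 50 bases after the gene start. With at most 2 mismatches it stood in 3 of 30 member windows and in 1268 of 32851 windows (3.86%), and no member window held it without a mismatch. These 3 matches are printed with their flanks, capitals marking the 13 bases of the match, at chr7:140116492-140116504 (Echs1, minus strand), chr9:55512308-55512320 (Etfa, minus strand, where the motif reads on the opposite strand) and chr9:108662142-108662154 (Slc25a20, plus strand).
Echs1: gcccgctcAGGTCACGGGTCCaccccttaa
Etfa: gcacacccTTACCTTTGCCCTactcccaag
Slc25a20: ctgaatgtAGGTGAAAGGTCGgcggagccg
A match is a description of letters. No binding was measured.

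Of the 12497 genes tested, 0 passed an adjusted p of 0.05 in either direction with edgeR (0.00% higher and 0.00% lower), and the smallest adjusted p over all genes was 0.84. At an unadjusted p under 0.05 stood 568 genes (4.55%; 2.65% higher and 1.90% lower), none of them a member. DESeq2 called 7 genes higher and 5 lower, none of them a member, and limma voom called 0. All 32 members passed the filter on low counts, and their edgeR adjusted p ran from 0.84 to 0.998. The members nevertheless leaned to lower values on the CPM scale, with 8 above 0 and 24 below, a median log2 difference of -0.20 and a range of -0.51 to 0.39, beside a median of 0.01 and 51.6% above 0 over all genes tested. Mitochondrial members had 6 above 0 and 15 below (median -0.22), and peroxisomal members 2 above and 9 below (median -0.19), both medians turning positive when TMM factors were left out (0.05 and 0.09) or when deposited TPM values were used (0.16 and 0.15). Those scales shift the median of all genes tested by 0.26 and 0.21. Relative to the median of all genes the mitochondrial and peroxisomal medians were -0.23 and -0.20 with TMM factors, -0.22 and -0.19 without them, and -0.06 and -0.07 for TPM. With the length and GC trend removed these relative medians were -0.12 for both sets.

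**Figure D1:**
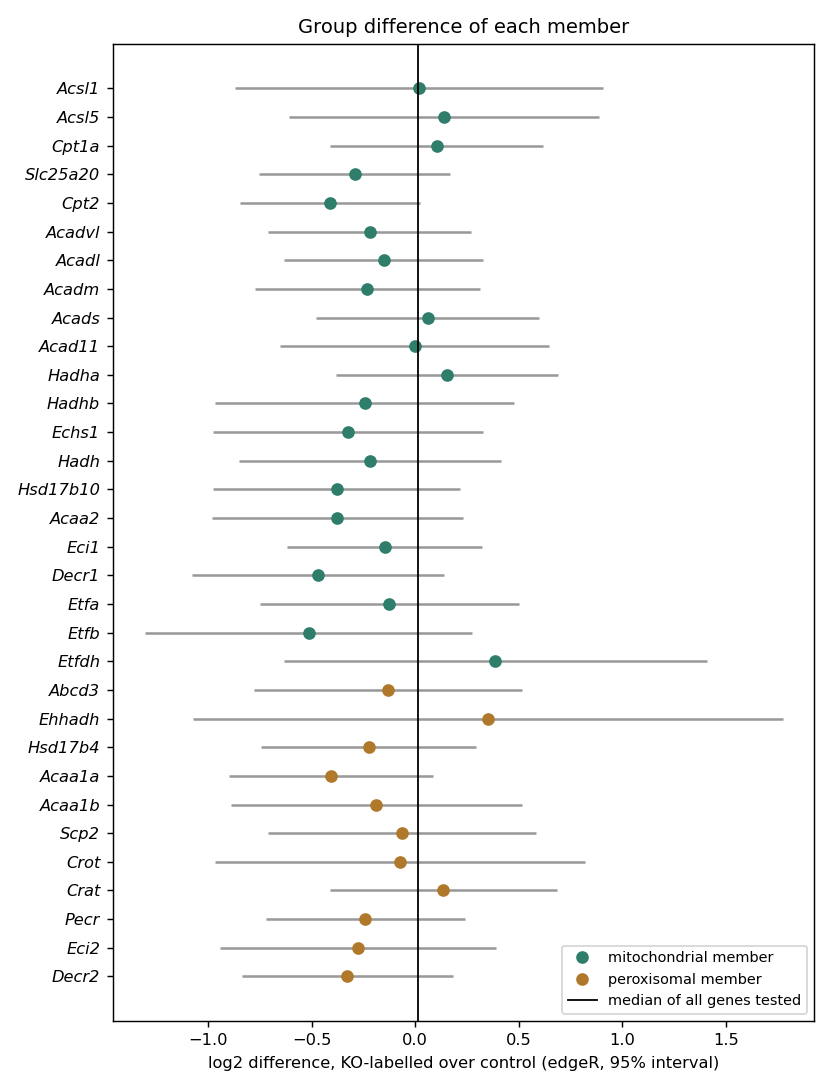
Log2 difference of each member, knockout-labelled over control, on the CPM scale with TMM factors (points) with its 95% interval from edgeR (bars), mitochondrial members above and peroxisomal members below, and the median of all genes tested as a line. Most points lie left of the line and all 32 intervals include 0, while 15 of the points change sign when TMM factors are left out.

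The plot of member differences shows intervals that are wide beside the points. The narrowest, that of Cpt2, ran from -0.85 to 0.02, and the widest, that of Ehhadh, from -1.07 to 1.77. In 5 members (15.6%) all knockout-labelled libraries lay below all controls, against 569 of all genes tested (4.55%), and in 0 members they all lay above (4.79% of all genes). Over both directions 9.34% of all genes did not overlap. Those 5 were Cpt2, Slc25a20, Acadvl, Acaa1a and Pecr. On CPM from library totals the count was 0 below and 2 above (Hadha and Scp2; 0.480% and 18.5% of all genes), and on deposited TPM it was 0 below and 2 above (Acsl5 and Hadha; 0.328% and 19.8%). With the trend of each library over transcript length and GC content removed it was 5 below and 0 above (5.03% and 3.40% of all genes), namely Cpt2, Acaa1a, Acadm, Decr1 and Hsd17b4, and thus Cpt2 and Acaa1a separated under both treatments.

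**Figure D2:**
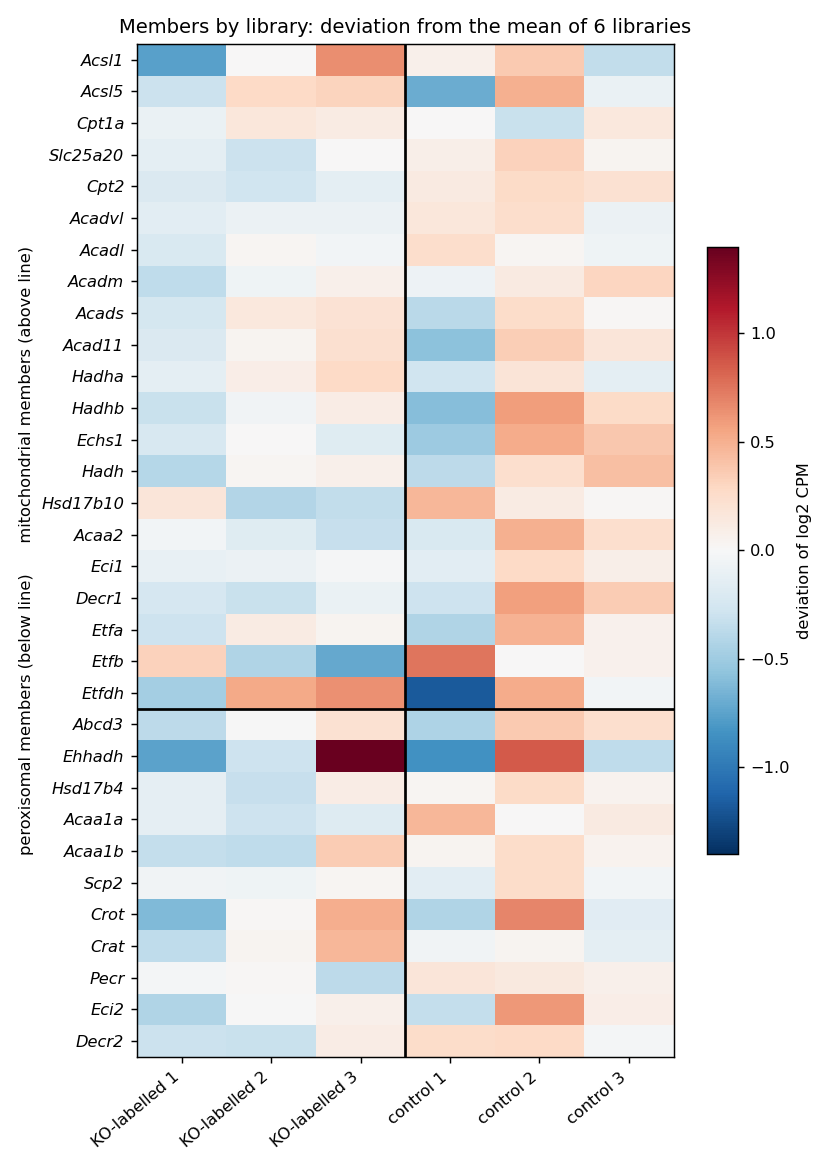
Deviation of log2 CPM (TMM-scaled) from the mean over the 6 libraries, 1 row per member with mitochondrial members above the horizontal line and peroxisomal members below it, knockout-labelled libraries left and controls right. Control replicate 2 is high across most rows, and control replicate 1 and knockout-labelled replicate 1 are low across many.

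Libraries of the same group differed from each other across many members, as the plot of deviations by library shows. Control replicate 2 held the highest value of 18 of the 32 members, knockout-labelled replicate 3 of 6, control replicate 1 of 5 and knockout-labelled replicate 1 of 0. The lowest value was in control replicate 1 for 12 members and in knockout-labelled replicates 1 and 2 for 8 each. The median deviation of mitochondrial members was -0.21, 0.00 and 0.04 in knockout-labelled replicates 1 to 3 and -0.21, 0.28 and 0.06 in control replicates 1 to 3. That of peroxisomal members was -0.33, -0.06 and 0.10 in knockout-labelled livers and -0.04, 0.27 and 0.05 in controls. Thus 1 control animal stood highest and the groups overlapped in both sets. Without control replicate 2 the mitochondrial median log2 difference was -0.13 and the peroxisomal one 0.0043, and without knockout-labelled replicate 1 they were -0.12 and -0.08. Without control replicate 3 the mitochondrial median was -0.14, and without knockout-labelled replicate 3 the peroxisomal one was -0.37. Leaving out knockout-labelled replicate 1 also gave the first calls in edgeR, 2 genes higher and 1 lower, none of them a member.

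**Figure D3:**
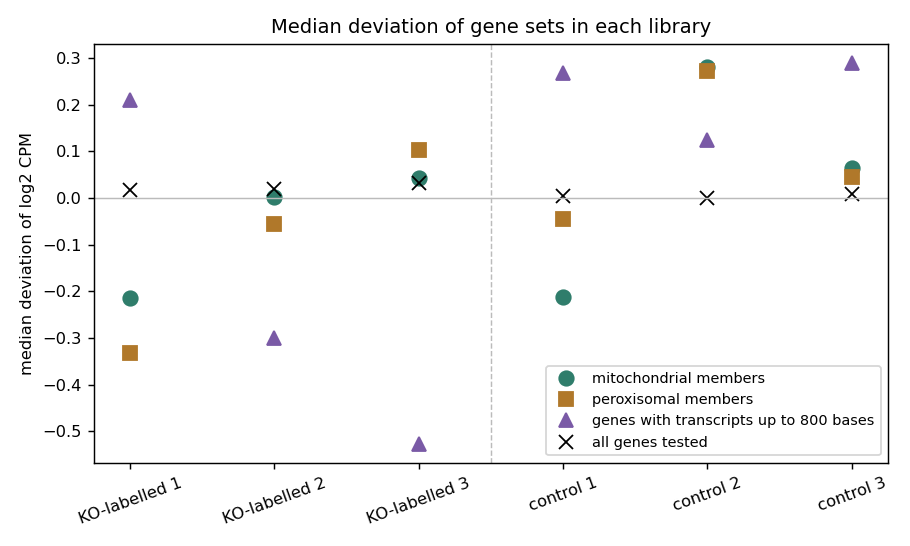
Median deviation of log2 CPM (TMM-scaled) in each library for mitochondrial members, peroxisomal members, genes with transcripts up to 800 bases and all genes tested. Mitochondrial members reach 0.28 in control replicate 2 and -0.21 in control replicate 1, short transcripts are at -0.53 in knockout-labelled replicate 3, and all genes stay near 0.

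The plot of set medians places members beside short transcripts, and a relation between the 2 was not tested. Once the dependence on transcript length and GC content was fitted and subtracted in each library, the median log2 differences were -0.14 for both sets of members. Above 0 lay 5 mitochondrial and 1 peroxisomal members, and the median of all genes tested was -0.02.

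The activation and shuttle step holds acyl-CoA synthetases, which bind a fatty acid to coenzyme A, and the carnitine carriers. Cpt1a (chr19:3322334-3385733, plus strand), the entry step that malonyl-CoA inhibits, measured 295, 351 and 340 CPM in knockout-labelled replicates 1 to 3 and 316, 253 and 348 CPM in control replicates 1 to 3. The groups overlapped, with 2 of the 3 knockout-labelled values inside the control range. The log2 difference of Cpt1a was 0.10 (SE 0.22, 95% interval -0.41 to 0.62, edgeR adjusted p = 0.95), and it turned to -0.06 with the length and GC trend removed. Slc25a20 (chr9:108662088-108684641, plus strand), the inner membrane carnitine-acylcarnitine translocase, measured 138, 124 and 153 CPM in knockout-labelled livers, against 161, 191 and 157 CPM in controls. All 3 knockout-labelled values lay below all 3 controls, by a margin of a few CPM between the nearest libraries. Its log2 difference was -0.29 (SE 0.20, 95% interval -0.75 to 0.17, edgeR adjusted p = 0.85), and 0.07 on the log2(TPM + 1) scale.

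Cpt2 (chr4:107903981-107923610, minus strand), which restores acyl-CoA on the matrix side, had the smallest p of the members. It measured 156, 148 and 163 CPM in knockout-labelled replicates 1 to 3, against 196, 217 and 208 CPM in control replicates 1 to 3. Every knockout-labelled liver lay below every control, with means of 156 ± 7.29 and 207 ± 10.4 CPM (SD, n = 3 each). Its log2 difference was -0.41 (SE 0.19, 95% interval -0.85 to 0.02), with an unadjusted p of 0.061 and an adjusted p of 0.84 in edgeR. The difference stayed below 0 in all 20 alternative settings, from -0.52 to -0.15, and passed the threshold in none. Of the synthetases, chosen here after their values were seen, Acsl1 measured 616, 1049 and 1639 CPM in knockout-labelled livers and 1099, 1342 and 820 CPM in controls. It makes acyl-CoA for oxidation and storage alike, and both its lowest and its highest library were knockout-labelled (log2 difference 0.02, SE 0.39, and -0.21 with the length and GC trend removed). Acsl5 had a log2 difference of 0.14 (SE 0.33).

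**Figure D4:**
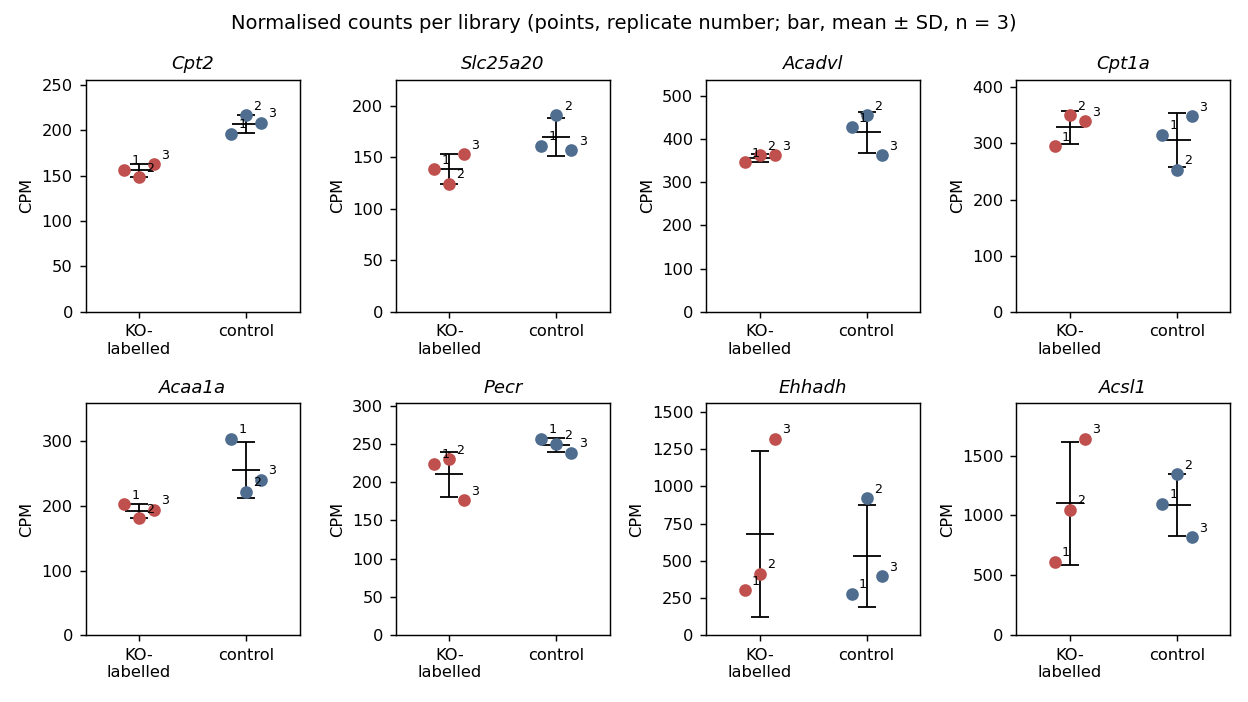
CPM (TMM-scaled) of 8 members in each library (points with replicate numbers, knockout-labelled left and control right) with mean ± SD, n = 3 each. The groups do not overlap in Cpt2, Slc25a20, Acadvl, Acaa1a and Pecr on this scale, and in Ehhadh and Acsl1 knockout-labelled replicate 3 is the highest of all.

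The acyl-CoA dehydrogenases open each turn of the cycle and differ in the chain length they take. Acadvl (chr11:70010183-70015411, minus strand), for very long chains, measured 346, 362 and 362 CPM in knockout-labelled livers and 428, 455 and 363 CPM in controls. The groups did not overlap, but the highest knockout-labelled library, at 361.89 CPM, lay just below control replicate 3 at 362.81 CPM. For Acadvl the log2 difference was -0.22 (SE 0.21, 95% interval -0.71 to 0.27, edgeR adjusted p = 0.88), and 0.05 without TMM factors. Reads of Acadvl are uncertain in a further way, since 32.7% of the 31-base words of its main transcript also occur in transcripts of Dvl2. Acadm, for medium chains, measured 389, 476 and 523 CPM in knockout-labelled livers and 475, 542 and 613 CPM in controls. Its groups overlapped (log2 difference -0.23, SE 0.24), as did those of Acadl (-0.15, SE 0.21), Acads for short chains (0.06, SE 0.24) and Acad11 (-0.00, SE 0.28).

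The mitochondrial trifunctional protein carries out the later steps for long chains, with the alpha subunit from Hadha and the beta subunit from Hadhb. Both genes lie back to back on chromosome 5, with starts at 30155162 and 30155248. Their log2 differences were 0.15 (SE 0.23, and -0.0035 with the length and GC trend removed) for Hadha and -0.24 (SE 0.31) for Hadhb, and no difference between the subunits was tested. Of Hadhb's 31-base words, 66.1% also occur in other genes, nearly all in Gm13910. Hsd17b10 (chrX:152001845-152004442, plus strand), a dehydrogenase that also serves mitochondrial tRNA processing, measured 447, 298 and 313 CPM in knockout-labelled replicates 1 to 3 and 547, 428 and 401 CPM in control replicates 1 to 3. The first replicate was the highest of each group, and knockout-labelled replicate 1 lay above 2 controls. Its log2 difference was -0.38 (SE 0.26, 95% interval -0.97 to 0.22, edgeR adjusted p = 0.85). Its main transcript is 962 bases long, and with the length and GC trend removed the difference was -0.11. Dropping knockout-labelled replicate 1 gave -0.59 and dropping control replicate 1 gave -0.24. The hydratase Echs1 (-0.33, SE 0.28), the short-chain dehydrogenase Hadh (-0.22, SE 0.28) and the thiolase Acaa2 (-0.38, SE 0.27) had log2 differences of the same sign on this scale, Echs1 turning positive for TPM and Hadh both for TPM and without TMM factors.

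Unsaturated fatty acids need auxiliary enzymes that move or remove double bonds. Decr1 (chr4:15917240-15945507, minus strand), the mitochondrial dienoyl-CoA reductase, measured 216, 205 and 239 CPM in knockout-labelled livers and 207, 379 and 326 CPM in controls. All 3 knockout-labelled values were close together, whereas control replicate 1 lay among them and the other 2 controls above. On the log2 scale Decr1 differed by -0.47 (SE 0.27, 95% interval -1.08 to 0.14, edgeR adjusted p = 0.84). Without control replicate 2 it was -0.28. Eci1, an enoyl-CoA isomerase, had a log2 difference of -0.15 (SE 0.21), or 0.11 after removal of the length and GC trend.

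The electron transfer flavoprotein takes electrons from the acyl-CoA dehydrogenases, with Etfa and Etfb coding for its subunits and Etfdh for the oxidoreductase that passes them to ubiquinone. Etfb (chr7:43444083-43457800, plus strand) measured 506, 302 and 245 CPM in knockout-labelled replicates 1 to 3 and 680, 405 and 420 CPM in control replicates 1 to 3. As in Hsd17b10, the first replicate of each group was the highest. Its log2 difference, the lowest of the members, was -0.51 (SE 0.35, 95% interval -1.31 to 0.28, edgeR adjusted p = 0.85). Its main transcript is 893 bases long, and with the length and GC trend removed the difference was -0.18. Dropping knockout-labelled replicate 1 gave -0.88, dropping knockout-labelled replicate 3 gave -0.31 and dropping control replicate 1 gave -0.23. In addition, 68.0% of its 31-base words occur in transcripts of Gm45233, so its counts are uncertain. Etfdh, given because it had the highest difference of the members, measured 129, 259 and 278 CPM in knockout-labelled livers and 79.2, 256 and 173 CPM in controls. Its log2 difference was 0.39 (SE 0.45, 95% interval -0.63 to 1.41, edgeR adjusted p = 0.90). Leaving out 1 library moved it between 0.04, when control replicate 1 was dropped, and 0.81, when control replicate 2 was dropped. Dropping knockout-labelled replicates 1 or 3 gave 0.66 and 0.19. Etfa had a log2 difference of -0.12 (SE 0.27), or 0.01 after removal of the length and GC trend.

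In peroxisomes, Abcd3 imports acyl-CoA, and the multifunctional enzymes Ehhadh and Hsd17b4 carry out hydration and dehydrogenation. Ehhadh (chr16:21761287-21787807, minus strand), chosen after its values were seen, had the widest spread of the members. It measured 302, 415 and 1320 CPM in knockout-labelled livers and 281, 921 and 396 CPM in controls, a log2 range of 2.23 over the 6 libraries. Knockout-labelled replicate 3 and control replicate 2 stood far above the others, 1 in each group, and the log2 difference of 0.35 had an SE of 0.62 (edgeR adjusted p = 0.94). Without knockout-labelled replicate 3 the difference was -0.57, and without control replicate 2 it was 1.00. Crot, which makes medium-chain carnitine esters for export, was likewise highest in those libraries, with 379, 591 and 829 CPM in knockout-labelled livers and 434, 938 and 521 CPM in controls (log2 difference -0.07, SE 0.39). Hsd17b4 (chr18:50128201-50196269, plus strand), the enzyme for branched chains and bile acid intermediates, varied little, at 367, 322 and 431 CPM in knockout-labelled livers and 409, 485 and 415 CPM in controls. The highest knockout-labelled library lay inside the control range (log2 difference -0.23, SE 0.23, 95% interval -0.74 to 0.29, edgeR adjusted p = 0.89), and the difference was 0.05 without TMM factors. Dropping knockout-labelled replicates 2 or 3 gave -0.13 and -0.34, and dropping control replicate 2 gave -0.14. Abcd3 had a log2 difference of -0.13 (SE 0.28) and the acetyltransferase Crat 0.14 (SE 0.24, and -0.08 with the length and GC trend removed).

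The peroxisomal thiolases end each turn of the cycle. Acaa1a (chr9:119339676-119350299, plus strand) measured 202, 180 and 194 CPM in knockout-labelled livers, against 303, 222 and 240 CPM in controls. All knockout-labelled livers lay below all controls, with means of 192 ± 11.1 and 255 ± 42.7 CPM (SD, n = 3 each). Its log2 difference was -0.41 (SE 0.22, 95% interval -0.90 to 0.08), with an unadjusted p of 0.093 and an adjusted p of 0.84 in edgeR, and it stayed below 0 in all 20 alternatives, from -0.50 to -0.11, and dropping control replicate 1 gave -0.27. Acaa1b (chr9:119148023-119157093, minus strand), its neighbour, measured 1689, 1662 and 2711 CPM in knockout-labelled livers and 2178, 2534 and 2193 CPM in controls. Its groups overlapped, knockout-labelled replicate 3 being the highest of all (log2 difference -0.19, SE 0.31). Since 43.8% of the 31-base words of Acaa1a's main transcript also occur in Acaa1b, and 45.7% of those of Acaa1b in Acaa1a, the split of reads between the pair is uncertain. Scp2, whose longer product is the thiolase for branched chains, measured 3115, 3108 and 3297 CPM in knockout-labelled livers and 2926, 3864 and 3155 CPM in controls (log2 difference -0.06, SE 0.28). Of the 31-base words of Scp2, 45.4% occur in the pseudogene Scp2-ps2.

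Peroxisomal auxiliary enzymes also handle double bonds. Pecr (chr1:72259167-72284314, minus strand), the trans-enoyl-CoA reductase, measured 224, 230 and 176 CPM in knockout-labelled livers and 257, 250 and 239 CPM in controls. The groups did not overlap, with means of 210 ± 29.4 and 248 ± 9.07 CPM (SD, n = 3 each). The difference of Pecr was -0.24 on the log2 scale (SE 0.21, 95% interval -0.72 to 0.24, edgeR adjusted p = 0.87), and 0.02 both without TMM factors and for TPM. Removal of the length and GC trend gave -0.05 and dropping knockout-labelled replicate 3 gave -0.13. Decr2, the peroxisomal dienoyl-CoA reductase (chr17:26081208-26090337, minus strand), measured 182, 180 and 240 CPM in knockout-labelled livers and 266, 271 and 219 CPM in controls. Knockout-labelled replicate 3 lay above control replicate 3, so the groups overlapped (log2 difference -0.33, SE 0.22, 95% interval -0.84 to 0.18, edgeR adjusted p = 0.85). Eci2, an isomerase also found in mitochondria, had a log2 difference of -0.27 (SE 0.29).

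Levels of different genes can be compared per length, for which the deposited TPM was used. Scp2 was the most abundant member, at 1337 ± 267 TPM in knockout-labelled livers and 1189 ± 360 TPM in controls, followed by Acaa1b at 1273 ± 482 and 1102 ± 106 TPM (SD, n = 3 each). These neighbours in the order did not differ beyond their spread. The most abundant mitochondrial members were Acaa2 (548 ± 248 and 519 ± 34.8 TPM), Etfb (496 ± 173 and 533 ± 133 TPM) and Hsd17b10 (428 ± 59.5 and 434 ± 44.3 TPM). Their ranges overlapped in knockout-labelled livers, where replicate 1 gave Acaa2 834 TPM, against 415 and 394 TPM in replicates 2 and 3, and 27.5% of its counts in that replicate lay on 1 short transcript. In controls the lowest Acaa2 value, 482 TPM, lay just above the highest of Hsd17b10, 481 TPM. The carnitine shuttle was lower, with Cpt2 at 81.0 ± 24.5 TPM in knockout-labelled livers and 91.9 ± 27.2 TPM in controls, Slc25a20 at 78.8 ± 12.9 and 74.9 ± 7.97 TPM, and Cpt1a at 71.2 ± 12.4 and 51.6 ± 12.6 TPM. Cpt2 was highest in knockout-labelled replicate 1 (109 TPM) and control replicate 1 (121 TPM), where 49.6% and 61.2% of its counts lay on a short transcript. In knockout-labelled replicates 2 and 3 it lay below Cpt1a (62.3 and 72.0 against 76.9 and 79.7 TPM). In control replicates 2 and 3 it lay above Cpt1a (66.7 and 88.4 against 40.5 and 65.2 TPM). Crat was the lowest, at 21.03 ± 7.62 and 14.9 ± 0.366 TPM. Together the members took 1.37%, 1.47% and 1.95% of counts in knockout-labelled replicates 1 to 3 and 1.27%, 1.56% and 1.51% in control replicates 1 to 3.

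Transcript estimates of some members divided the libraries in a way that crossed the groups. Of Cpt2's counts, a transcript of 1015 bases took 49.6%, 0.085% and 0.099% in knockout-labelled replicates 1 to 3 and 61.2%, 0.29% and 10.2% in control replicates 1 to 3. Knockout-labelled replicate 1 and control replicate 1 were alike, control replicate 3 lay between, and the other 3 libraries had almost none. Of Pecr's counts, a transcript of 688 bases annotated for nonsense-mediated decay took 49.4%, 0.067% and 0% in knockout-labelled livers and 52.6%, 0.54% and 17.5% in controls. The same libraries stood high for a retained-intron transcript of Acadvl with 538 bases, which took 34.0%, 1.17% and 2.03% in knockout-labelled livers and 36.7%, 5.15% and 12.3% in controls. For Abcd3 the division fell between transcripts of similar length, the one of 3156 bases taking 98.3%, 21.4% and 10.4% in knockout-labelled livers and 97.8%, 63.2% and 85.1% in controls. Not all members followed this division. For Etfdh, a transcript of 2233 bases took 42.6%, 15.2% and 4.83% in knockout-labelled livers and 73.8%, 42.4% and 69.4% in controls. For Eci1, a transcript of 1108 bases took 73.3% in knockout-labelled replicate 1 and 0% in control replicate 1. All these shares are estimates made by the quantification. The CPM values and the edgeR test use sums over a gene's transcripts, which do not depend on how its reads were divided among them. TPM and the transcript length offset do depend on it, and with that offset the log2 difference of Acadvl was -0.46.

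**Figure D5:**
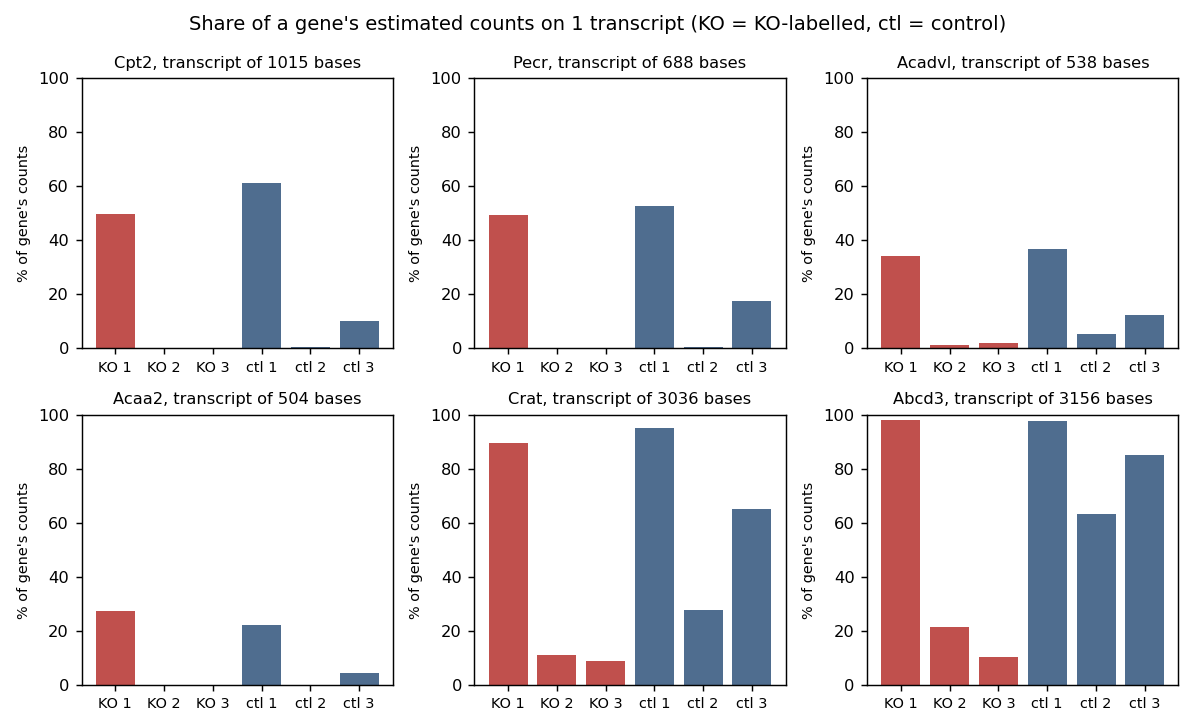
Percent of a gene's estimated counts that lie on 1 named transcript, in each library (knockout-labelled left, control right), for 6 members. The members were picked after their values were seen. Each panel shows the transcript with the largest excess of control replicate 1 over knockout-labelled replicate 3, so a high control replicate 1 follows from the choice. Knockout-labelled replicate 1 and control replicate 1 have the highest shares in every panel, such as 49.6% and 61.2% for the Cpt2 transcript of 1015 bases.

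The plot of transcript shares divides the libraries into knockout-labelled replicate 1 with control replicates 1 and 3, in which over 5% of Cpt2's counts lay on the short transcript, and knockout-labelled replicates 2 and 3 with control replicate 2. This division was read from the data. Within the first set the median log2 difference was -0.15 for mitochondrial and -0.27 for peroxisomal members, and within the other -0.33 and -0.31, beside 0.01 and 0.02 for all genes tested. Cpt2 differed by -0.37 and -0.48 in these sets, Slc25a20 by -0.20 and -0.47 and Acaa1a by -0.42 and -0.25, whereas Cpt1a differed by -0.17 in one and 0.45 in the other. Each set has a single library in 1 of the groups, so these differences have no test.

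Of 32 further genes of fatty acid oxidation, 30 were tested and 0 passed the threshold (11 above 0, 19 below, median log2 difference -0.08, against 21 above, 9 below and 0.20 without TMM factors and 22 above, 8 below and 0.20 for TPM). Dropping knockout-labelled replicate 1 gave 18 above and 12 below (median 0.04), and dropping control replicate 2 gave 17 above and 13 below (0.07). Dropping knockout-labelled replicate 3 gave 4 above and 26 below (-0.20). An unadjusted p under 0.05 was reached by 2 of them, against 4.55% of all genes. Acot4, a peroxisomal acyl-CoA thioesterase, measured 41.6, 53.7 and 64.9 CPM in knockout-labelled livers and 86.5, 86.8 and 80.1 CPM in controls (log2 difference -0.66, SE 0.22, edgeR adjusted p = 0.84). Acot3, a related peroxisomal thioesterase, measured 27.4, 45.5 and 58.0 CPM in knockout-labelled livers and 56.5, 201 and 69.2 CPM in controls (-1.32, SE 0.50, edgeR adjusted p = 0.84). Acot4 separated the groups, though not on deposited TPM, and Acot3 did not. Of the 30 genes, 4 lay below without overlap on CPM (Acot4, Acot8, Ech1 and Acadsb) and 1 lay above (Acad10), 16.7% together. Over all genes tested these shares were 4.55% below, 4.79% above and 9.34% together.

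Among 13 regulators, 10 lay above 0 and 3 below (median log2 difference 0.22, and 12 above and 1 below both without TMM factors and for TPM), and 0 passed the threshold. Acacb, whose product makes the malonyl-CoA that inhibits carnitine palmitoyltransferase 1, measured 11.2, 7.35 and 9.31 CPM in knockout-labelled livers and 4.21, 5.09 and 6.38 CPM in controls. All knockout-labelled values lay above all controls, also on deposited TPM (log2 difference 0.83, SE 0.26, unadjusted p = 0.012, edgeR adjusted p = 0.84). Acacb was the only regulator whose groups did not overlap on CPM (1 of 13, 7.69%). Of all genes tested, 4.79% lay above without overlap on CPM and 19.8% did on deposited TPM. Sirt5, a mitochondrial desuccinylase, measured 21.8, 34.6 and 38.5 CPM in knockout-labelled livers and 23.2, 17.0 and 17.4 CPM in controls (0.72, SE 0.26, edgeR adjusted p = 0.84), with knockout-labelled replicate 1 below control replicate 1. Ppara, the receptor gene, measured 10.01, 18.3 and 18.5 CPM in knockout-labelled livers and 11.5, 11.7 and 11.6 CPM in controls. The controls were nearly equal, and knockout-labelled replicate 1 lay below them (0.43, SE 0.26, edgeR adjusted p = 0.84). The median main transcript of the regulators had 3656 bases, against 2694 bases over all genes tested, and genes with main transcripts of 4000 bases or more deviated by -0.03, 0.13 and 0.17 in knockout-labelled livers and -0.05, -0.10 and -0.09 in controls. With the length and GC trend removed, 7 regulators lay above 0 and 6 below (median 0.03).

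Of 16 peroxisome biogenesis genes, 8 lay above 0 and 8 below (median log2 difference -0.02), against 13 above and 3 below without TMM factors and 15 above and 1 below for TPM, and 0 reached an unadjusted p under 0.05. Pex7, the import receptor that brings Acaa1a-type thiolases into peroxisomes, measured 71.9, 65.8 and 60.0 CPM in knockout-labelled livers and 84.8, 83.2 and 77.8 CPM in controls. Pex16, which takes part in forming the peroxisomal membrane, measured 64.0, 64.7 and 71.6 CPM in knockout-labelled livers and 87.7, 81.0 and 77.2 CPM in controls. Both separated the groups with the knockout-labelled livers below, though not on deposited TPM, by log2 differences of -0.31 and -0.30 (SE 0.18 each, edgeR adjusted p = 0.84 each). These 2 of 16 genes (12.5%) stand beside 4.55% of all genes that lay below without overlap and 9.34% that did not overlap in either direction.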

How the data were processed

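RNA of whole liver from 6 mice was sequenced as read pairs after enrichment of poly-A RNA, per the labels' protocols. Each deposited file gives an estimated count, a TPM and an effective length for each of 115221 transcripts of 1 library, and its columns are those that Salmon writes, per the file headers. The deposited estimated counts carry no scaling for depth, whereas the deposited TPM values were scaled by the authors to 1 total for every library. The submitters' processing notes name Bowtie2 2.2.5, RSEM 1.2.8, DESeq and GRCm38 with no role. Nothing on the quantifier's version, its transcriptome or strand was stated (not given in the sources used here), and antisense and overlapping genes cannot be told apart.

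GENCODE M21 (GRCm38) gave the gene of each transcript. Identifiers of 113664 matched without version and 13 of these also with it, whereas 1557, with 0.247% of counts, matched none and were left out. Lengths equalled those of the annotation for 99.2%. Gene coordinates are from that annotation, promoters from RefSeq on GRCm38.p6. Estimated counts were summed per gene, rounded, filtered with filterByExpr (12497 genes), scaled with TMM factors and tested two-sided in edgeR 4.0.16 (R 4.3.3, quasi-likelihood) with Benjamini-Hochberg adjustment over all genes and a threshold of 0.05. The labels describe 3 animals per group. Standard errors are the log2 difference divided by the root of the F statistic. CPM per library carries the TMM factors, and deviations use log2 CPM with a prior count of 2.

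Given in every sample were members with an unadjusted p under 0.05 or groups that did not overlap, then those with the next smallest p up to 6 mitochondrial and 4 peroxisomal members, and Cpt1a. Ehhadh, Crot, Acsl1, Etfdh, Acadm, Acaa1b and Scp2 were added after their values were seen, as were the transcript shares. Of each list of other pathway genes, the 2 with the smallest p and Ppara were named, and 1 gene that the rule also takes is not reported here. The members and lists were chosen with earlier results of these data known. Alternatives were RLE and upper quartile scaling, library totals, other filters, DESeq2 1.42.0, limma 3.58.1 (voom, with sample weights, and on log2(TPM + 1)), a length offset, removal of each library's loess trend over length and GC content (span 0.5, degree 2), the replicate number as a block, each library left out and members with more than 1 location left out. The members with more than 1 location were Acsl1, Acsl5, Acad11, Crat, Eci2 and Scp2, and elsewhere each was kept in the set it was listed in. A term for the library division was added after seeing the data. The tests were also run on simulated counts, with results not given here.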

Additional observations from a re-analysis of the deposited data

How the results depend on the processing

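No member passed an adjusted p of 0.05 in any of the 20 alternatives (smallest 0.17, limma voom with sample weights), and the direction of Cpt2, Hsd17b10, Acaa2, Decr1, Etfb, Etfdh, Acaa1a and Decr2 was the same in all of them. Over all genes DESeq2 called 7 higher and 5 lower, and leaving out each library gave 0 to 2 higher and 0 to 1 lower. The mitochondrial and peroxisomal medians were 0.051 and 0.089 from library totals and 0.16 and 0.15 on log2(TPM + 1). Over left-out libraries they ran from -0.30 to -0.12 and from -0.37 to 0.0043, and their values under the other alternatives moved by less than the spread between libraries.

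Without TMM factors the log2 difference of 15 members reversed, to 0.051 in Acadvl, 0.11 in Acadl, 0.026 in Acadm, 0.26 in Acad11, 0.027 in Hadhb, 0.035 in Hadh, 0.12 in Eci1, 0.15 in Etfa, 0.14 in Abcd3, 0.047 in Hsd17b4, 0.089 in Acaa1b, 0.21 in Scp2, 0.22 in Crot, 0.018 in Pecr and 0.0030 in Eci2. On log2(TPM + 1) 16 reversed, to 0.066 in Slc25a20, 0.21 in Acadl, 0.14 in Acadm, 0.40 in Acad11, 0.095 in Hadhb, 0.081 in Echs1, 0.16 in Hadh, 0.22 in Eci1, 0.29 in Etfa, 0.18 in Abcd3, 0.13 in Hsd17b4, 0.15 in Acaa1b, 0.20 in Scp2, 0.30 in Crot, 0.016 in Pecr and 0.10 in Eci2. On both scales the median of all genes tested moves up, as given with the results. With the length and GC trend removed, alone and together with the replicate block, the values were -0.21 in Acsl1, -0.060 in Cpt1a, -0.0035 in Hadha, 0.11 in Eci1, 0.015 in Etfa and -0.077 in Crat.

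Members close to 0 reversed under other settings. Acsl1 was -0.0029 with RLE scaling, -0.0068 with DESeq2 and -0.067 with voom, Acad11 was 0.029 with upper quartile scaling, 0.038 with voom and 0.010 with a length offset, and Crot was 0.026 with sample weights. With a term for the library division, chosen after seeing the data and therefore descriptive, Acsl1 was -0.32, Acsl5 -0.071, Acads -0.079, Ehhadh -0.13 and Crat -0.017. The cause of these reversals was not tested.

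Same-numbered libraries of the groups correlated with r of 0.20, 0.27 and -0.14 in their deviations, so the numbers were not taken to pair the animals. With the replicate block, 0 genes and 0 members were called, the medians were -0.17 and -0.22, and Acsl1 (-0.073) and Acad11 (0.037) reversed.

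Over left-out libraries the sign changed in Acsl1 (-0.38 to 0.30), Acsl5 (-0.11 to 0.49), Cpt1a (-0.015 to 0.21), Acads (-0.10 to 0.22), Acad11 (-0.23 to 0.18), Hadhb (-0.52 to 0.026), Etfa (-0.33 to 0.12), Abcd3 (-0.34 to 0.026), Ehhadh (-0.57 to 1.00), Scp2 (-0.15 to 0.062), Crot (-0.38 to 0.33), Crat (-0.10 to 0.31) and Eci2 (-0.48 to 0.0043).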
